A study of Mus musculus with 4 samples.

Results

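A set of 9 genes that build the lipid barrier of the epidermis were followed across the regions of mouse dorsal skin. They were taken by name, 9 of the 32286 features counted, and comprise Elovl4, Cyp4f39, Sptlc3, Cers3, Pnpla1, Ugcg, Abca12, Alox12b and Aloxe3. The skin came from Krox20-CreERT; R26-tdTomato mice that received 4-hydroxytamoxifen at postnatal day 2 and were collected at postnatal day 38, so that cells with Krox20 promoter activity at the time of induction and their progeny carry tdTomato. RNA was captured on 4 Visium slices, and by the study's design text each slice held 1 section from each of the same 3 mice. The study left a further section with a distorted structure out of its own analysis. The labels do not say which spots belong to that section, so it was not removed here and all slices were used. No untreated or other genotype was among these samples, and every comparison below is between regions within these slices. The slices repeat the same mice, so the spread between them is largely technical and the p-values measure that spread, not the spread between animals.

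The outermost living keratinocytes make ceramides that carry an ultra-long acyl chain. These lipids are packed into lamellar granules, secreted between the corneocytes and in part attached to the cornified envelope. Inherited loss of several of these genes in humans causes ichthyosis, a scaling disorder of the skin, and the question put to the slices was whether their transcripts were confined to the epidermis or were also found in the follicle and its gland.

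The 4 slices held 1650, 1752, 1556 and 1462 spots with 26910422, 24128004, 21384253 and 19393026 UMIs (unique molecular identifiers, each standing for 1 captured transcript). Of the 6420 spots, 6411 had at least 250 genes and were kept. A spot covers several cells, and it was given to the region whose marker list scored highest in it, provided that the score reached 1. None of the 9 genes was in a marker list. This gave 512 spots to the epidermis (Krt1, Krt10, Lor and others), 457 to the upper follicle (Krt79, Gata6, Lrig1 and others), 310 to the sebaceous gland (Scd3, Cidea, Mc5r and others) and 659 to the inner root sheath (Krt25, Krt71, Tchh and others). Outer root sheath and companion layer, hair matrix and shaft, dermis, fat and muscle made up a further 729, 628, 363, 579 and 901 spots, and 1273 spots reached no list. Epidermis, upper follicle and gland lie within a few spots of each other, and 73.2% of epidermis spots, 75.7% of upper follicle spots and 82.6% of gland spots also reached the threshold of another list. Of hair matrix and shaft spots, 62.3% also reached the inner root sheath list. Of inner root sheath spots, 39.0% also reached the hair matrix and shaft list, so these regions are not cleanly separated. The summed epidermis markers stood at 23.5% ± 3.35 (SD, n = 4 slices) of their epidermal level in the upper follicle, at 21.7% ± 1.72 in the gland, at 4.70% ± 0.653 in the inner root sheath and at 3.94% ± 0.633 in muscle. The summed inner root sheath markers were still at 35.7% ± 0.845 of their own level in muscle, so muscle is no empty background for transcripts of the lower follicle. Levels are given as UMIs per 1000000 UMIs of the region (CPM) and were compared between regions of a gene, not between genes. In such sums, fewer cells of a type and less RNA per cell cannot be told apart.

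The genes did not share a single pattern. The share of a gene's UMIs that lay in epidermis spots, which held 4.99% ± 1.02 of all UMIs, was 66.2% ± 4.33 for Alox12b, 35.9% ± 7.09 for Aloxe3 and 30.6% ± 3.10 for Sptlc3. It was 17.4% ± 3.50 for Abca12, 13.0% ± 2.25 for Elovl4 and 12.2% ± 3.74 for Cyp4f39. For Cers3 and Ugcg it was 7.92% ± 1.75 and 7.40% ± 1.98, and for Pnpla1 it was 4.56% ± 1.82. Over all spots the slices held 339 UMIs of Alox12b, 504 of Aloxe3 and 582 of Sptlc3, against 2955 to 23653 for the other members, so the first 3 have the widest counting error.

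**Figure D1:**
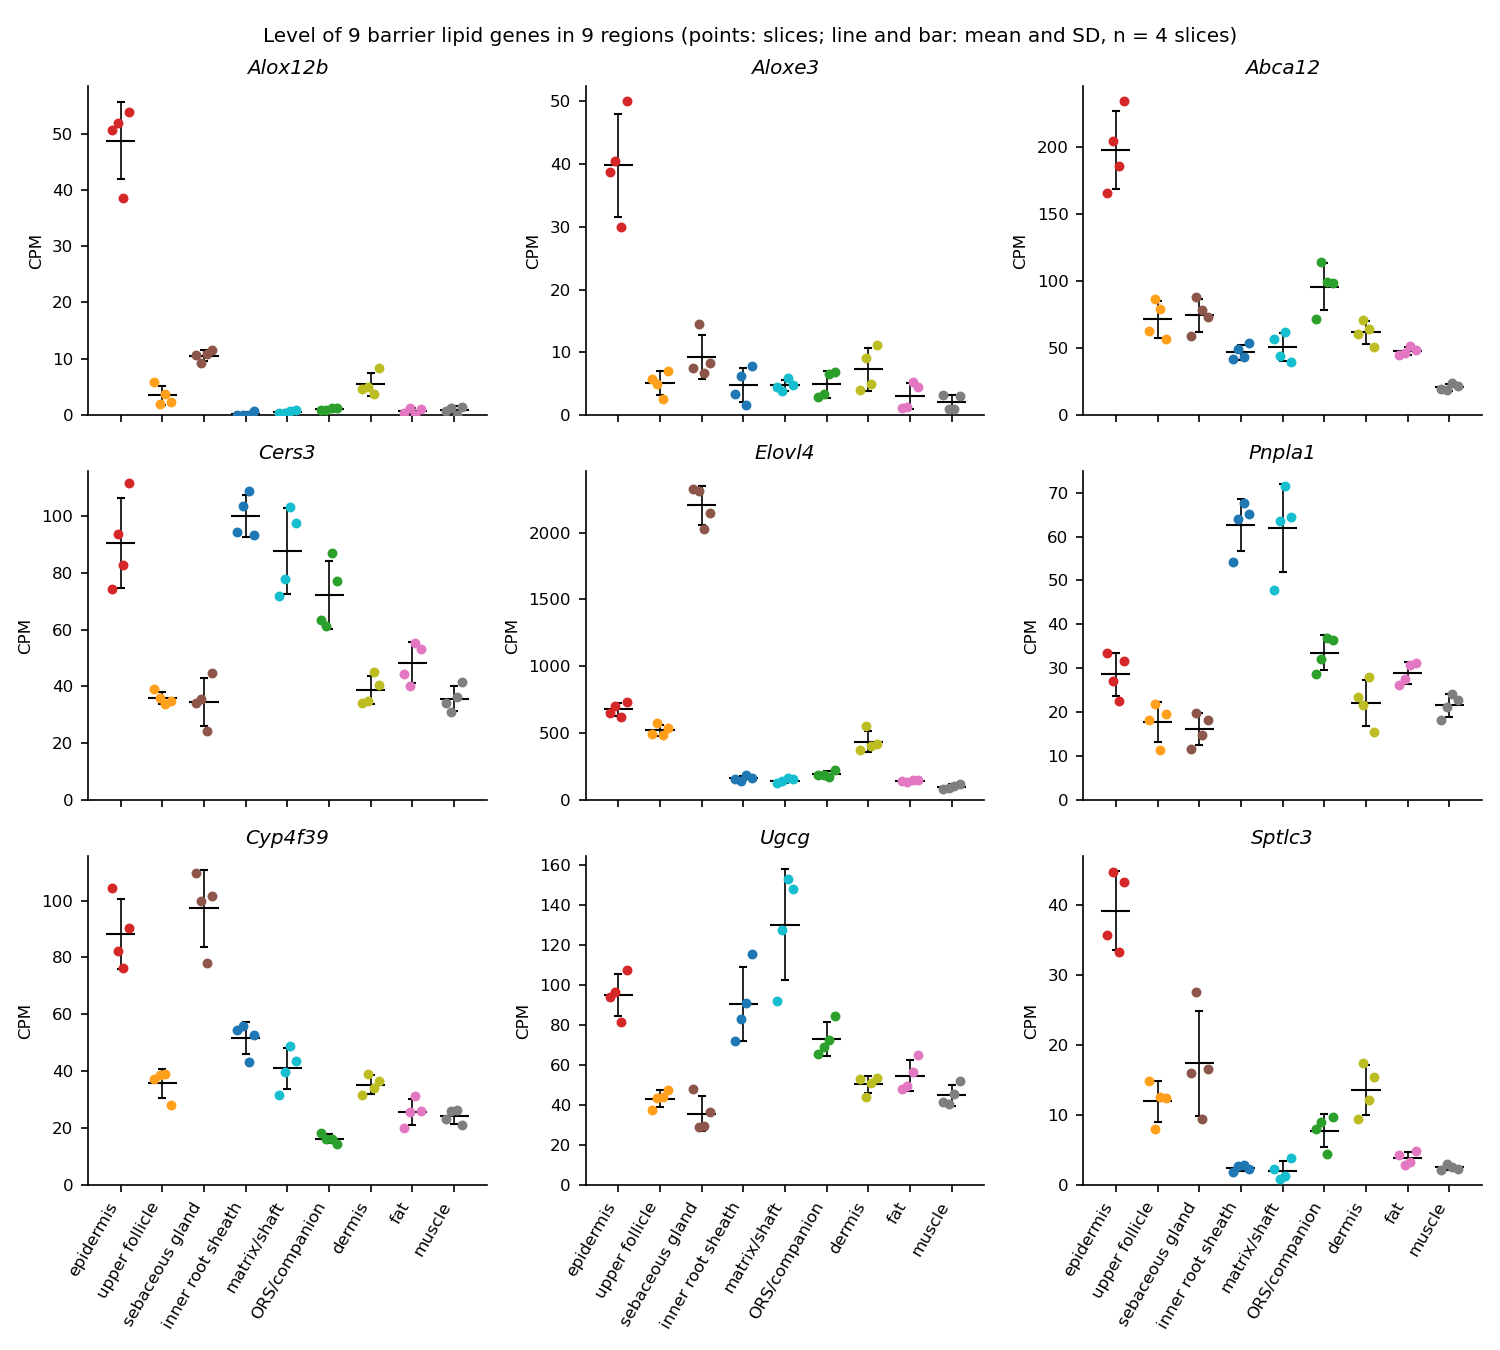
Level of each gene in CPM (vertical axis, from 0) in 9 regions (horizontal axis), with a point per slice and the mean and SD over 4 slices; ORS is outer root sheath. Alox12b, Aloxe3, Abca12 and Sptlc3 are highest in the epidermis, Elovl4 in the sebaceous gland at 2203 CPM on average, and Pnpla1 in the inner root sheath and the hair matrix and shaft.

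The first steps of the pathway make the ultra-long chain. Elovl4, the elongase that extends fatty acids to the ultra-long range, reached 647, 704, 624 and 736 CPM in the epidermis of replicates 1 to 4. In the sebaceous gland it reached 2327, 2312, 2024 and 2148 CPM. Every gland value was above every epidermal value. The epidermis was lower than the gland by a log2 fold change of -1.66 ± 0.11 (SE; edgeR quasi-likelihood test with Benjamini-Hochberg adjustment over 12056 genes, adjusted p = 4.4e-16). Upper follicle values ran from 484 to 575 CPM, below the 4 epidermal values, where the epidermis was higher by 0.39 ± 0.11 on the log2 scale (adjusted p = 0.010 in the same edgeR fit). That call was lost when regions needed a score of 2 (adjusted p = 0.43), when spots were thinned to 5000 UMIs each (adjusted p = 0.061) and without replicate 4 (adjusted p = 0.052). Elovl4 is on the minus strand of chromosome 9, at 83778692 to 83806277 in GRCm38, and each of its gland values was above each value of every other region. The 250 bases upstream of its RefSeq start are shown because it was the member lower in the epidermis than in the gland by a passing test, with capitals marking both matches to GCCNNNGGC, the TFAP2 motif (chr9:83806306-83806555, minus strand, GRCm38.p6):
Elovl4: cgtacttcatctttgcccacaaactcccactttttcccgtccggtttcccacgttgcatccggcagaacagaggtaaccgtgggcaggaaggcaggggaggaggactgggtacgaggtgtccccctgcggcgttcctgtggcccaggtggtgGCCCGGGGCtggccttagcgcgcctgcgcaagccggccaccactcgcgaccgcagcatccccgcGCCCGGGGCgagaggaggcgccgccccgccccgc

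Cyp4f39, the mouse counterpart of the human omega-hydroxylase CYP4F22, which hydroxylates the far end of the ultra-long chain, had its highest mean level in the gland, overlapping the epidermis. It stood at 104, 82.1, 76.2 and 90.4 CPM in the epidermis and at 110, 99.8, 78.0 and 101 CPM in the gland, and the ranges overlap. The epidermis-over-gland difference was -0.08 ± 0.14 on the log2 scale (adjusted p = 0.78, edgeR), which does not show that the levels were equal. It turned to 0.78 (adjusted p = 0.0038, edgeR) when gland spots had to lie at least 2 grid steps from any epidermis spot, so its sign depends on which gland spots are taken. In the upper follicle Cyp4f39 was at 28.0 to 38.9 CPM and in the inner root sheath at 43.4 to 55.7 CPM, below every epidermal value. The epidermis was higher than the upper follicle by 1.35 ± 0.15 (adjusted p = 1.6e-09, edgeR) and higher than the inner root sheath by 0.68 ± 0.12 (adjusted p = 1.3e-05, edgeR), and the second call was lost at a score of 2 (adjusted p = 0.14).

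Ceramide is then made from a sphingoid base and the acyl chain. Sptlc3, a subunit of serine palmitoyltransferase, the enzyme that starts the sphingoid base, reached 35.8, 44.7, 33.3 and 43.3 CPM in the epidermis. In the inner root sheath it was at 1.90, 2.74, 2.92 and 2.23 CPM, about the level of muscle at 2.52 ± 0.396 CPM (n = 4). The gland came next after the epidermis at 9.41 to 27.6 CPM, then the dermis at 9.41 to 17.5 CPM and the upper follicle at 7.95 to 14.9 CPM, and these neighbours overlap each other. The epidermis was higher than the inner root sheath by 3.85 ± 0.25 on the log2 scale (adjusted p = 4.1e-17, edgeR) and higher than the gland by 1.20 ± 0.23 (adjusted p = 0.00011, edgeR). The gland call was lost with spots on 1 list only (adjusted p = 0.12) and with regions drawn as clusters at resolution 0.9 (adjusted p = 0.070). Gm14066 overlaps Sptlc3 on the opposite strand, and 0 UMIs were assigned to it.

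Cers3, the synthase that joins the ultra-long chain to the sphingoid base, was found in both the epidermis and the lower follicle. It stood at 74.5, 93.5, 82.6 and 112 CPM in the epidermis and at 94.5, 104, 109 and 93.5 CPM in the inner root sheath. The ranges overlap, and the difference of -0.27 ± 0.12 on the log2 scale had an adjusted p of 0.054 (edgeR), and of 0.027 with the slice as a replicate block. Of 18 alternatives, 7 passed with the epidermis lower, the block among them, 9 had that sign without passing, and 2 turned it without passing, at 0.25 with spots on 1 list only and 0.20 with clusters at resolution 2 (adjusted p = 0.22 and 0.21). Upper follicle values of 33.9 to 39.0 CPM and gland values of 24.2 to 44.9 CPM lay below the epidermis, by 1.33 ± 0.15 and 1.43 ± 0.16 on the log2 scale (adjusted p = 2.4e-09 and 2.8e-09, edgeR). Muscle had 31.0 to 41.5 CPM, and upper follicle and gland were at -0.03 ± 0.15 and -0.14 ± 0.17 against it (adjusted p = 0.87 and 0.53, edgeR). The inner root sheath was above muscle by 1.56 ± 0.11 (adjusted p = 1.4e-15, edgeR).

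The ceramide is modified before it leaves the cell. Pnpla1, the transacylase that adds linoleate to the end of the chain, was the member with the lowest share in the epidermis. It stood at 33.4, 27.0, 22.5 and 31.7 CPM in the epidermis and at 54.1, 64.0, 67.6 and 65.2 CPM in the inner root sheath, and the hair matrix and shaft were at 47.9, 63.6, 71.6 and 64.5 CPM. Every value of the inner root sheath and of the hair matrix and shaft was above every epidermal value. The outer root sheath and companion layer, at 28.7 to 37.0 CPM, overlapped the epidermis. The epidermis was lower than the inner root sheath by a log2 fold change of -1.20 ± 0.14 (adjusted p = 4.1e-10, edgeR), and that direction and call held under all 18 alternatives. Against the hair matrix and shaft, a comparison added after the levels had been seen, it was -1.17 ± 0.14 (adjusted p = 1.6e-09, edgeR), which did not pass with spots on 1 list only (adjusted p = 0.14) or with clusters at resolution 0.9 (adjusted p = 0.20). The epidermis was higher than the upper follicle by 0.71 ± 0.19 (adjusted p = 0.0067, edgeR) and higher than the gland by 0.93 ± 0.21 (adjusted p = 0.0012, edgeR). Without replicate 1 neither passed, at adjusted p = 0.091 and 0.089, and in all the upper follicle call was lost in 6 of 18 alternatives (adjusted p up to 0.30) and the gland call in 4 of 18 (adjusted p up to 0.47). Pnpla1 lies on the plus strand of chromosome 17, at 28858411 to 28890309 in GRCm38, and the antisense gene Pnpla1os that overlaps its start had 5 UMIs, against 2955 for Pnpla1. The sources used here do not state how strand was used in counting. Its 250 upstream bases are shown because it was the member lower in the epidermis than in the inner root sheath by a passing test, with capitals marking both matches to CCACCC, a KLF motif, which read as GGGTGG on this strand (chr17:28858161-28858410, plus strand, GRCm38.p6):
Pnpla1: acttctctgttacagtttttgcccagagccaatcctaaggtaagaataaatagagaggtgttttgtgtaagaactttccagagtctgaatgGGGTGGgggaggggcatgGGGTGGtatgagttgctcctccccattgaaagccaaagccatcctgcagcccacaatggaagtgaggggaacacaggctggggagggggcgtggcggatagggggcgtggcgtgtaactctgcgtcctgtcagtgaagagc

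Ugcg, which adds glucose to ceramide for transport, was at 94.2, 96.7, 81.5 and 108 CPM in the epidermis and at 72.0, 82.8, 90.9 and 115 CPM in the inner root sheath. The ranges overlap, and the difference was -0.03 ± 0.12 on the log2 scale (adjusted p = 0.88, edgeR). It passed in opposite directions when regions were drawn as clusters, at -0.51 with resolution 0.9 (adjusted p = 8.1e-06) and at 0.41 with resolution 2 (adjusted p = 0.043). At resolution 2, 1 cluster named inner root sheath (196 spots) had a mean score of -0.219 on that list. The smaller difference without that cluster is given with the alternatives below. The hair matrix and shaft had the highest mean level, with 92.0, 128, 153 and 148 CPM, and replicate 1 overlapped the epidermis. In this comparison, also added after the levels had been seen, the epidermis was lower by -0.54 ± 0.12 (adjusted p = 0.00021, edgeR). With spots on 1 list only it was 0.12 (adjusted p = 0.68) and with clusters at resolution 0.9 it was 0.21 (adjusted p = 0.34), so its direction depends on how the region is drawn. Upper follicle and gland values of 37.3 to 47.5 and 28.9 to 48.0 CPM were both below the epidermis, by 1.16 ± 0.15 and 1.43 ± 0.16 on the log2 scale (adjusted p = 3.7e-08 and 2.2e-09, edgeR).

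Abca12, the transporter that loads glucosylceramide into lamellar granules, was at 166, 205, 186 and 235 CPM in the epidermis. The outer root sheath and companion layer followed at 71.4 to 114 CPM, with no overlap. The epidermis was higher by 1.03 ± 0.13 on the log2 scale in that comparison, which was added after the levels had been seen (adjusted p = 5.8e-09, edgeR). Upper follicle and gland were at 56.9 to 86.5 and 58.6 to 88.0 CPM and overlapped each other. The inner root sheath was at 41.9 to 53.6 CPM, and muscle at 18.6 to 24.2 CPM was lowest. The epidermis was higher than the upper follicle, the gland and the inner root sheath by 1.49 ± 0.14, 1.45 ± 0.15 and 1.96 ± 0.13 on the log2 scale (adjusted p = 2.6e-11, 1.9e-10 and 1.4e-16, edgeR). Against the outer root sheath and companion layer the difference was 0.49 with clusters at resolution 0.9, and it passed under every alternative.

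Among the 9 members both lipoxygenases act last, on the linoleate of the finished ceramide. Their genes neighbour each other on chromosome 11 with 7873 bases between them (Aloxe3 at 69125896 to 69149115 and Alox12b at 69156989 to 69169792, both on the plus strand of GRCm38). Alox12b was at 50.7, 52.0, 38.6 and 53.8 CPM in the epidermis. In the inner root sheath it was at 0, 0, 0 and 0.745 CPM, where the last value stands for 2 UMIs. The pooled ratio of epidermis to inner root sheath was 262, with an exact interval of 71.6 to 2174 at 95% confidence that covers counting error only. In the gland it was at 10.7, 9.20, 10.8 and 11.6 CPM, or 22.05% ± 4.23 of the epidermal level, beside 21.7% ± 1.72 for the epidermis marker list in the same spots. In the upper follicle it was at 5.80, 1.99, 3.77 and 2.34 CPM, or 7.34% ± 3.83, beside 23.5% ± 3.35 for that list. The epidermis was higher than the gland by 2.26 ± 0.26 and higher than the upper follicle by 3.80 ± 0.30 on the log2 scale (adjusted p = 3.7e-09 and 9.1e-14, edgeR). The gland difference was 3.80 when gland spots lay at least 2 steps away from the epidermis. That value rests on 3 Alox12b UMIs in 74 gland spots at 2 steps and 1 UMI in 27 spots farther away. The 167 bases upstream of Alox12b are shown as the sequence of the member most concentrated in the epidermis, and none of the 4 motifs searched is in them (chr11:69156822-69156988, plus strand, GRCm38.p6):
Alox12b: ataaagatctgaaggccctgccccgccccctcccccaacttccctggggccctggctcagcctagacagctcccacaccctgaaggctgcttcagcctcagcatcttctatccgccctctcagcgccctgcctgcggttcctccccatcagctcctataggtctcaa

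Aloxe3, which converts the product of Alox12b, was at 38.7, 40.5, 30.04 and 50.0 CPM in the epidermis, and no other region had a slice above 14.5 CPM. Unlike Alox12b it was found in the inner root sheath, with 52 UMIs and 3.43, 6.16, 1.67 and 7.82 CPM. The mean there of 4.77 CPM was not particular to this region. Upper follicle, outer root sheath and companion layer, and hair matrix and shaft averaged 5.07, 4.88 and 4.74 CPM, and dermis and gland 7.32 and 9.24 CPM. In the inner root sheath Aloxe3 was above muscle by 1.38 ± 0.41 on the log2 scale (adjusted p = 0.0045, edgeR). That call was lost at a score of 2 (adjusted p = 0.90), with clusters at resolution 2 (adjusted p = 0.11) and without replicate 2 (adjusted p = 0.098). Its level in the inner root sheath was 11.3% ± 4.93 of the epidermal level, beside 4.70% ± 0.653 for the epidermis marker list, and the part of transcripts spread from the epidermis was not tested.

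**Figure D2:**
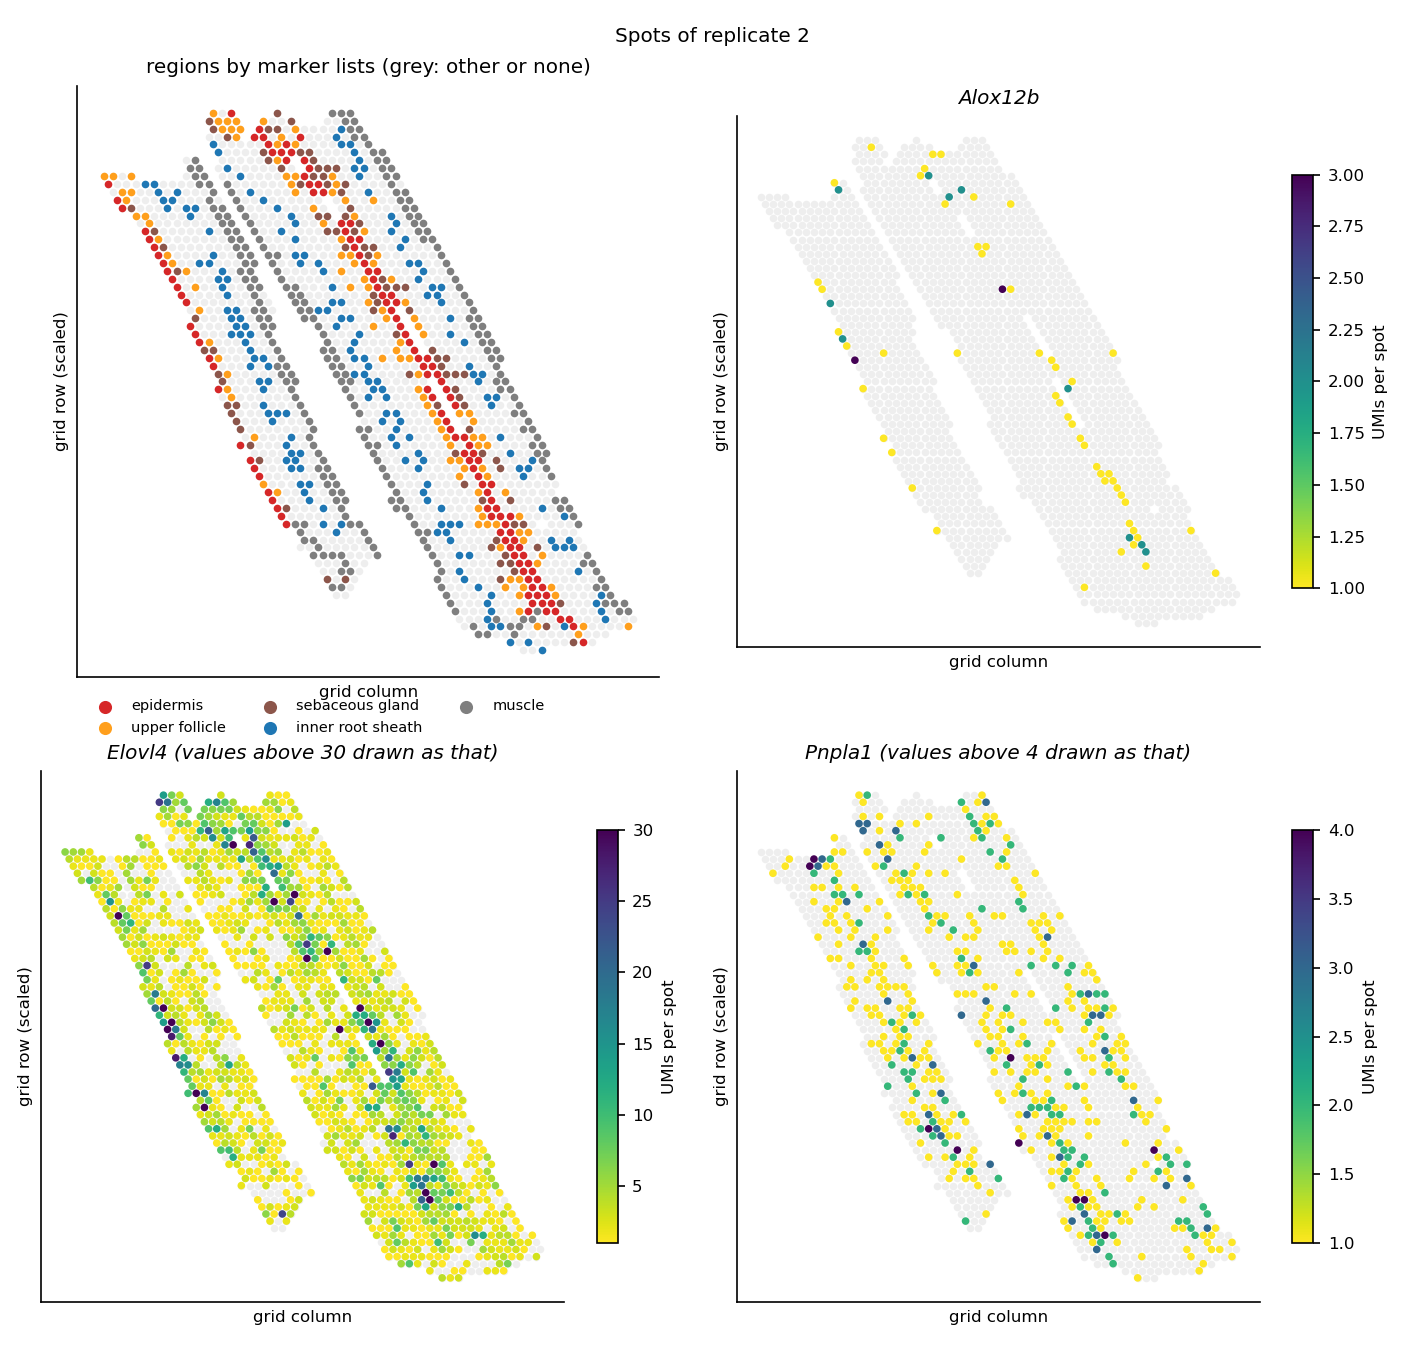
Spots of replicate 2 on the capture grid, coloured by region (first panel) and by UMIs per spot of Alox12b, Elovl4 and Pnpla1, with grey where none was counted and yellow to dark for low to high counts (Elovl4 drawn up to 30 and Pnpla1 up to 4). Most Alox12b UMIs follow the line of epidermis spots, Elovl4 is densest in and beside that line where the gland spots lie, and Pnpla1 is spread over the deeper follicle.

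Counted over the 9 genes, all 9 were higher in the epidermis than in the upper follicle, where 7.59% of the genes tested were higher in the epidermis and 6.78% lower. Against the gland 7 of 9 were higher in the epidermis (8.21% of genes tested), 1 was lower (7.66%), namely Elovl4, and Cyp4f39 did not pass. Against the inner root sheath 6 of 9 were higher (25.4% of genes tested), 1 was lower (23.6%), namely Pnpla1, and Cers3 and Ugcg did not pass. In the 2 comparisons added later, 7 of 9 were higher than in the outer root sheath and companion layer (18.4%) and 0 lower (16.4%), with Cers3 and Pnpla1 not passing, and 6 of 9 were higher than in the hair matrix and shaft (24.3%), with Pnpla1 and Ugcg lower (22.8%). The median member stood at 38.9% ± 5.39 of its epidermal level in the upper follicle, at 40.6% ± 3.91 in the gland and at 25.4% ± 2.96 in the inner root sheath (SD, n = 4 slices). With clusters at resolution 2 the gland value was 22.1%, and with spots on 1 list only the upper follicle value was 25.8%.

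**Figure D3:**
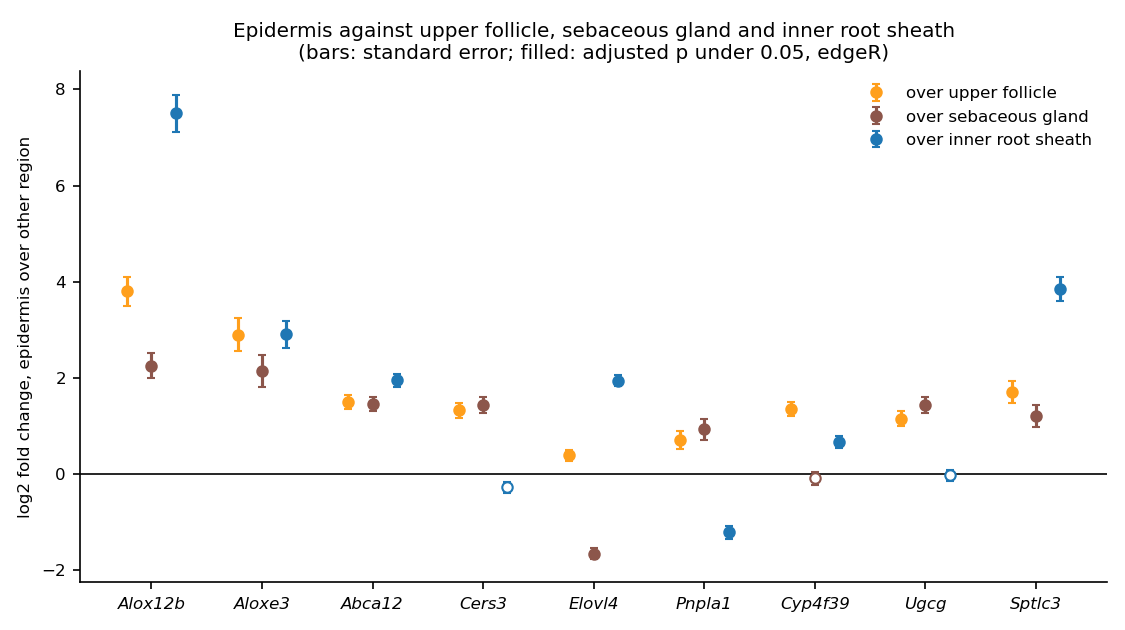
The log2 fold change of epidermis over upper follicle, sebaceous gland and inner root sheath (vertical axis) for each gene (horizontal axis), with standard errors and filled points where the adjusted p from edgeR was under 0.05; the Alox12b point over inner root sheath rests on 2 UMIs there and its height depends on the fit. Of the 27 points, 22 filled ones lie above 0 and the 2 filled ones below 0 are Elovl4 against the gland at -1.66 and Pnpla1 against the inner root sheath at -1.20.

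Muscle served as the region where these genes have no known part in a barrier. All 9 were higher in the epidermis than in muscle (26.5% of genes tested), from Alox12b with 5.77 ± 0.29 on the log2 scale to Pnpla1 with 0.40 ± 0.15 (adjusted p = 2.8e-21 and 0.027, edgeR). The Pnpla1 call was lost in 10 of 18 alternatives, among them without replicate 1 (adjusted p = 0.38), replicate 2 (adjusted p = 0.066) or replicate 4 (adjusted p = 0.086), at a score of 2 and without the filter on low genes (adjusted p = 0.12 in both). The inner root sheath was above muscle for 7 of 9 genes (25.5%), all but Alox12b and Sptlc3, and below it for 0 of 9 (25.2%). The gland was above muscle for 6 of 9 (23.8%), led by Elovl4 with 4.36 ± 0.12. It was below muscle for 1 of 9 (22.3%), namely Pnpla1 at -0.54 ± 0.20 (adjusted p = 0.027, edgeR). That Pnpla1 call was lost in 9 of 18 alternatives, among them DESeq2 (adjusted p = 0.061), library size alone (adjusted p = 0.087), without replicate 1 (adjusted p = 0.11) and without replicate 3 (adjusted p = 0.12). The upper follicle was above muscle for 6 of 9 (25.7%, 3098 of 12056 genes tested). With upper follicle spots at least 2 steps from the epidermis (161 spots) it was above for 3 of 9, beside 2183 of 12266 genes tested. Without replicate 1 or without replicate 2 it was above for 4 of 9, beside 2690 of 11689 and 2643 of 11883 genes tested. Calls over all genes thus also became fewer. In the upper follicle Cers3, Ugcg and Pnpla1 did not differ from muscle by a passing test, so for these the upper follicle values cannot be set apart from the level in muscle at this depth.

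**Figure D4:**
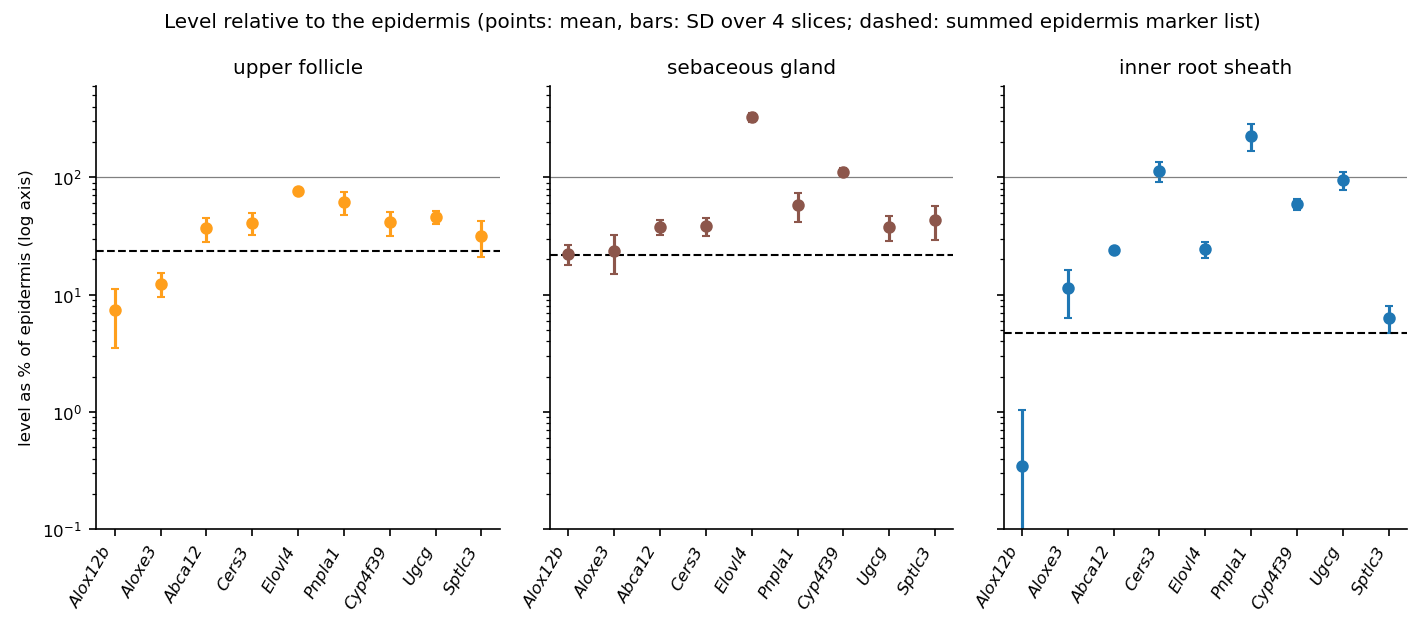
Level of each gene as a percent of its epidermal level (log axis) in upper follicle, sebaceous gland and inner root sheath, with the mean and SD over 4 slices and a dashed line at the level of the summed epidermis markers in the same spots; the lower bar of Alox12b in the inner root sheath runs off the axis. Alox12b lies at or under the dashed line in all 3 regions, and Elovl4 in the gland and Pnpla1 in the inner root sheath lie above 100%, at 326% and 226%. Cyp4f39 in the gland and Cers3 in the inner root sheath are also above 100% on average, at 110% ± 8.56 and 113% ± 21.6.

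Distance from the epidermis gave a view in which the other spots were not sorted by marker list, although the epidermis spots that set its origin had been chosen against all lists. Each spot was placed by its number of grid steps to the nearest epidermis spot of its slice. Alox12b fell from 48.8 ± 6.89 CPM in the epidermis to 8.12 ± 0.982 at 1 step, 1.77 ± 0.444 at 2 steps and 0.884 ± 0.961 at 3 steps, and stayed under 1 CPM beyond. Sptlc3 declined more slowly, from 39.2 ± 5.59 to 16.3 ± 3.84, 10.8 ± 2.08 and 6.33 ± 1.82 CPM at 1, 2 and 3 steps. Neither had a second maximum above its spread.

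Aloxe3 stood at 8.25 ± 3.13, 4.35 ± 1.44 and 6.03 ± 2.62 CPM at 1, 2 and 3 steps, within its spread.

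The other members had a maximum away from the surface. Elovl4 was highest at 1 step, with 1185 ± 144 CPM, where 27.2% of spots were gland and 38.5% upper follicle. Abca12 fell to 68.7 ± 13.0 at 1 step and stood at 101 ± 12.9 CPM at 3 steps, where 34.7% of spots were outer root sheath and companion layer. Cers3 fell to 37.0 ± 2.51 CPM at 1 step and stood at 90.3 ± 17.4 at 4 steps, beside 90.6 ± 16.0 in the epidermis. Ugcg likewise went from 46.4 ± 4.99 CPM at 1 step to 93.2 ± 13.1 at 4 steps, and Pnpla1 from 19.6 ± 4.52 to 53.1 ± 3.84. At 4 steps 24.0% of spots were outer root sheath and companion layer, 22.3% inner root sheath and 20.8% hair matrix and shaft. At 5 steps 33.6% of spots were inner root sheath and 28.0% hair matrix and shaft. Cyp4f39 had its second maximum deepest, with 43.8 ± 4.53 CPM at 6 steps after 20.4 ± 4.60 at 3 steps.

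**Figure D5:**
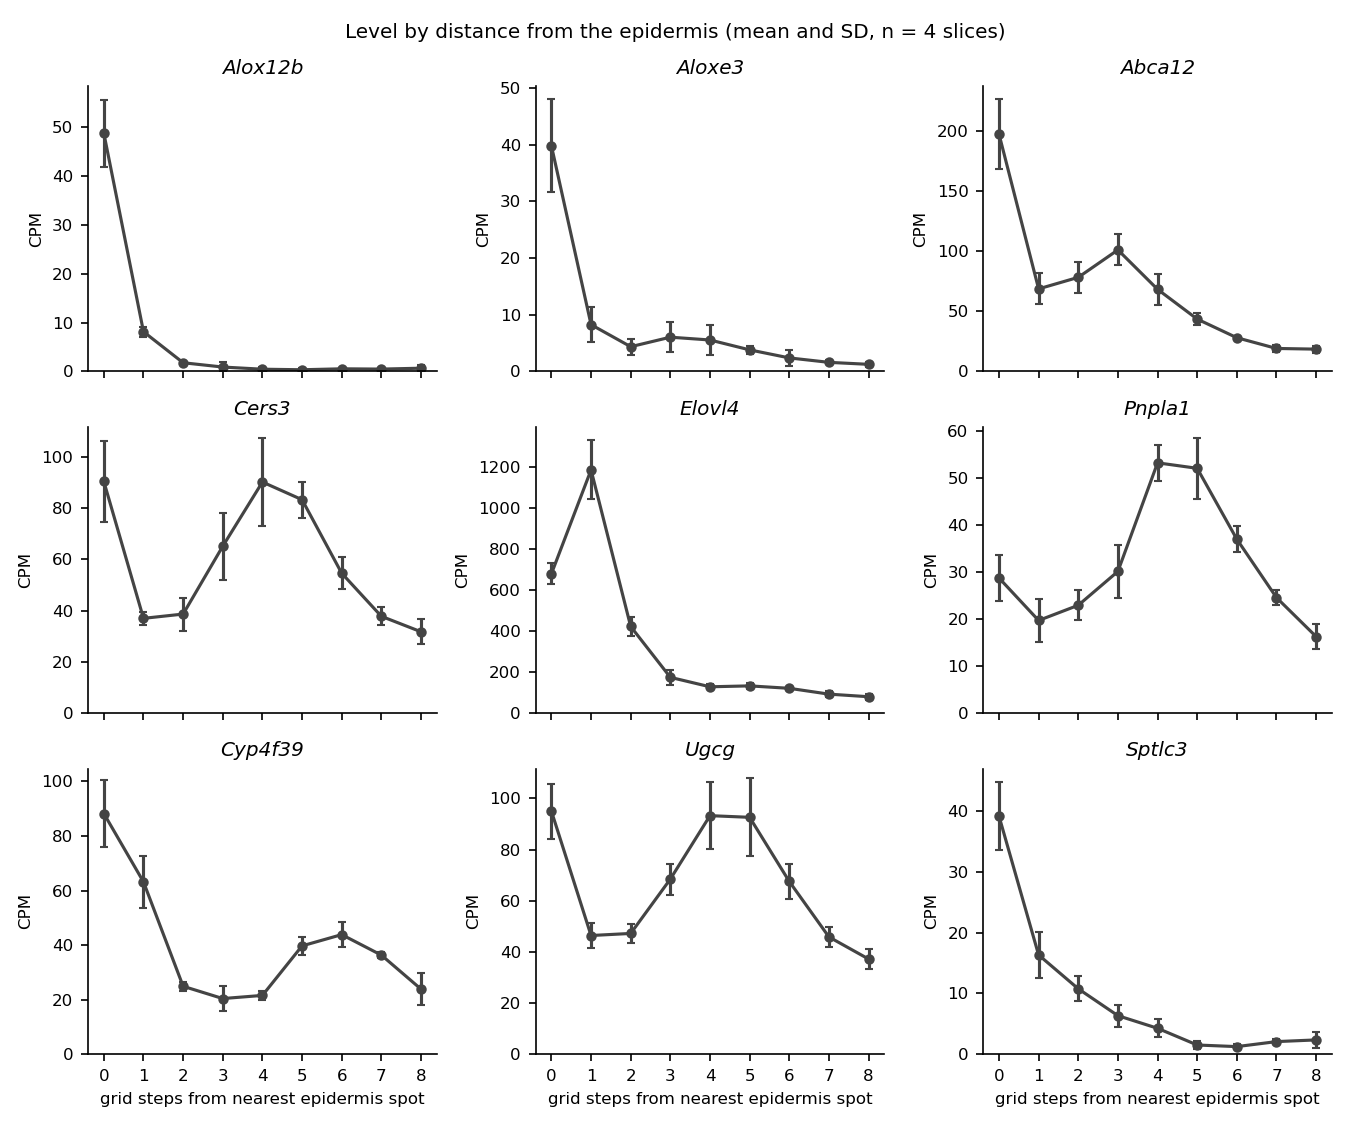
Level in CPM (vertical axis, from 0) by grid steps from the nearest epidermis spot (horizontal axis, 0 is the epidermis itself), as mean and SD over 4 slices. Alox12b and Sptlc3 decline away from the epidermis, and Elovl4 peaks at 1 step with 1185 CPM. Cers3 and Ugcg have a second maximum at 4 to 5 steps, and Pnpla1 has its highest level there.

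Within the gland, nearness to the epidermis moved with several levels. In the 209 gland spots that touched an epidermis spot, Elovl4 was at 2807 CPM and Cyp4f39 at 121 CPM, and in the 74 gland spots at 2 steps they were at 1187 and 55.1 CPM. The summed gland markers also went from 2353 to 1408 CPM and the summed epidermis markers from 8528 to 4865 CPM between these spots. The epidermis was still lower than the gland in Elovl4 by -0.64 (adjusted p = 0.00020, edgeR) when gland spots next to the epidermis were left out. The part of gland content or of epidermis content in these values was not tested.

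Across the 36 slice and region sums the members fell into groups that describe the same patterns. The sums share slices, spots near each other and library depth, so the correlations are a description. The log2 CPM of Alox12b ran with that of Sptlc3 (Pearson's r = 0.90) and Aloxe3 (r = 0.83), and Cers3 ran with Ugcg (r = 0.90) and Pnpla1 (r = 0.83). Pnpla1 ran against Alox12b (r = -0.46) and Elovl4 (r = -0.55). The genes of the region marker lists were left out of the search for similar profiles. Among the remaining genes tested, the profile most like that of Alox12b was Lce1m (r = 0.96), that of Aloxe3 was Gm11992 (r = 0.89), that of Abca12 was Clic3 (r = 0.92) and that of Sptlc3 was C77080 (r = 0.95). For Cers3 it was Tgm1 (r = 0.92), for Ugcg and Pnpla1 it was Cnfn (r = 0.89 and 0.92), for Cyp4f39 it was Acer1 (r = 0.92), and for Elovl4 it was Ldah (r = 0.97).

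Other genes of the same pathways were read from 4 lists. In the list of fatty acid elongation and hydroxylation, 11 of 11 genes were tested. Their median log2 fold change of epidermis over gland was -1.76 against -0.01 for all genes. Of the 11, 9 were lower in the epidermis than in the gland, against 7.66% of genes tested. They included Elovl6, which makes stearate from palmitate, at -2.01 ± 0.13, and the fatty acid 2-hydroxylase Fa2h at -2.66 ± 0.11 (adjusted p = 3.2e-17 and 3.1e-22, edgeR). Elovl7 did not pass. Elovl1, the elongase of saturated very long chains, ran the other way and was higher in the epidermis by 2.29 ± 0.09 over the gland and by 2.56 ± 0.08 over the inner root sheath (adjusted p = 1.5e-23 and 6.3e-28, edgeR). Against the inner root sheath the same list had 7 genes higher (25.4% of genes tested) and 2 lower (23.6%) in the epidermis. The median was 0.97 against -0.01 for all genes.

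In the list of other inherited ichthyosis and cornification genes, 9 of 10 were tested. Against the upper follicle 5 were higher in the epidermis (7.59% of genes tested) and 1 lower (6.78%), with a median of 0.67 against 0.00 for all genes. Against the gland 7 were higher (8.21%) and 1 lower (7.66%), with a median of 0.71. Against the inner root sheath 5 were higher (25.4%) and 3 lower (23.6%), with a median of 0.37. Casp14, a protease of cornification, was higher in the epidermis than in the inner root sheath by 3.91 ± 0.24, and Sdr9c7, a dehydrogenase that acts after the lipoxygenases, by 1.22 ± 0.22 (adjusted p = 3.4e-18 and 6.7e-06, edgeR). Tgm1, the transglutaminase that crosslinks the envelope, was lower in the epidermis than in the inner root sheath by -0.44 ± 0.10 and St14, a membrane serine protease, by -0.57 ± 0.10 (adjusted p = 0.00027 and 1.5e-05, edgeR). Slc27a4, a fatty acid transporter, was lower than in the gland by -1.33 ± 0.11 (adjusted p = 5.6e-13, edgeR).

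In the list of glucosylceramide and sphingomyelin processing, 8 of 9 genes were tested. Against the upper follicle 4 were higher in the epidermis (7.59% of genes tested) and 1 lower (6.78%), with a median of 0.37. Against the gland 2 were higher (8.21%) and 1 lower (7.66%), with a median of 0.20. Against the inner root sheath 5 were higher (25.4%) and 1 lower (23.6%), with a median of 0.51. Sgms1, a sphingomyelin synthase, was higher in the epidermis than in the upper follicle by 0.90 ± 0.16 and than in the inner root sheath by 0.96 ± 0.14 (adjusted p = 4.4e-05 and 2.5e-07, edgeR). In the list of de novo sphingolipid synthesis, 13 of 15 genes were tested. Against the upper follicle 3 were higher (7.59% of genes tested) and 4 lower (6.78%) in the epidermis, with a median of -0.22. Against the gland 1 was higher (8.21%) and 4 lower (7.66%), with a median of -0.19. Against the inner root sheath 8 were higher (25.4%) and 2 lower (23.6%), with a median of 0.80.

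Of the 9 members, 8 had an upstream window in the RefSeq table for GRCm38.p6, and Aloxe3 had none. In windows of 250 bases on both strands, TGANTCA (AP-1) was in 0 of 8 members against 6.75% of 32851 promoters, and AACCGGTT (GRHL) in 0 of 8 against 0.116%. GCCNNNGGC was in 3 of 8 (Alox12b, Elovl4 and Ugcg) against 13.7%, and in Alox12b the match lay beyond the bases shown, inside the transcribed part of the GENCODE gene. CCACCC was in 1 of 8, Pnpla1, against 28.1%. The shown windows of Alox12b, Elovl4 and Pnpla1 were 62.3%, 69.6% and 54.0% G and C. A match is a description of the letters and not a binding site.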

How the data were processed

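The authors deposited UMI counts per spot and gene as made by Space Ranger 2.0.1 against mm10 per the file headers and labels, 1 matrix for each of 4 slices. Other settings, such as the use of strand and the annotation release, are not given in the sources used here. The counts were used without correction for transcripts spread between spots. Doublets do not apply to spots, and no deconvolution was run. Depth per slice was 19393026 to 26910422 UMIs, and intervals cover counting error only. Of the barcodes, 750 of 2485 occurred in all 4 slices, because a barcode marks a grid position.

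Each marker's log1p UMIs per 10000 was scaled over spots, averaged over its list and scaled again, and a spot took the list with the highest score of at least 1. Of the hair matrix list, Krt85 was not analysed here. Adding up the UMIs of each region within a slice gave 36 sums of at least 10 spots each. The test was the quasi-likelihood test of edgeR 4.0.16 in R 4.3.3 after filterByExpr and TMM scaling, without a block, over 12056 genes with Benjamini-Hochberg adjustment at 0.05. The SE is the log2 fold change divided by the root of F. In simulated counts for epidermis against upper follicle (8667 genes), the test found 83% of 200 genes that had been given a log2 change of 1 and 8.79% of calls were false. That share is above the threshold of 0.05, and the simulation held fewer genes than the 12056 of the reported fit. Slices with the same number deviated together (mean correlation 0.169, 0.0982, 0.0609 and 0.0956 for slices 1 to 4, against -0.0873 to -0.0543 with other slices), since the sums of 1 slice come from the same sections. The sections of the 3 mice touch on the grid and were not separated. Distances are to the nearest epidermis spot of any section in the slice.

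Alternatives were DESeq2 1.42.0, library size without TMM, no filter on low genes, a replicate block, score thresholds of 0.5 and 2, spots on 1 list only, spots at least 2 steps from the epidermis, an epidermis list without terminal markers, Seurat 5.3.0 clusters at resolutions 0.9 and 2 that leave the members out, all deposited spots, spots thinned to 5000 UMIs and leaving out each slice. Comparisons with the outer root sheath and the hair matrix, and clusters at resolution 2 with a mean score of at least 0.5, were chosen later, with the data in view. The members and lists were chosen with earlier results of these data known. The values of 1 gene of the pathway lists are not reported here. Genes named are the 9 members, genes of the 4 pathway lists, region markers, and the genes with the highest Pearson correlation of log2(CPM + 1) with a member. Members and region markers were not candidates for that correlation. Gene positions are from GENCODE M21 and upstream sequences from RefSeq, both on GRCm38, where windows were ended at the GENCODE start.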

Additional observations from a re-analysis of the deposited data

Results flagged for a closer look

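In 81 sets of 4 slices (9 genes in 9 regions), 2 held a slice far from the other 3, where chance gives about 1 in 20. Cyp4f39 in the upper follicle was at 28.0 CPM in replicate 4, with the other slices at 37.3 to 38.9 CPM. Alox12b in the inner root sheath was at 0.745 CPM in replicate 4, which is 2 UMIs, with 0 in the other slices.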

How the results depend on the processing

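The counts of members higher in the epidermis than in upper follicle, inner root sheath, gland, muscle, outer root sheath or hair matrix stayed within 1.5 times of the reported count under every alternative run, a wide band for 9 genes. Against the gland the count of 7 fell to 5 with spots on 1 list only (462 of 9920 genes tested) and with clusters at resolution 0.9 (810 of 13707). It rose to 8 at 2 steps (869 of 12266) and with clusters at resolution 2 (2486 of 12366). The count of members above muscle in the upper follicle was 3 instead of 6 with spots on 1 list only, at least 2 steps from the epidermis, with clusters at resolution 2 and with thinned spots, and 4 to 6 when a slice was left out. In the first 4 of these settings 1735 of 9920, 2183 of 12266, 2749 of 12366 and 2099 of 9337 genes tested were above muscle there, against 3098 of 12056. The median level relative to the epidermis was, for the upper follicle, 25.8% with spots on 1 list only, 46.3% with clusters at resolution 0.9 and 30.7% with clusters at resolution 2, also at a mean score of at least 0.5. For the inner root sheath it was 33.0% at a score of 2, 33.7% with clusters at resolution 0.9 and 19.97% at resolution 2. At resolution 2, 1 of the clusters named inner root sheath (196 spots) had a mean inner root sheath score of -0.219. With that cluster unnamed the median was 23.0%. For the gland it was 34.1% with spots on 1 list only (3 slices), 49.5% with clusters at resolution 0.9 and 22.1% at resolution 2, where 1 of the clusters named gland (131 spots) had a mean gland score of -0.388. With that cluster unnamed it was 37.1%. The causes were not tested.

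Directions turned for 3 differences that had not passed and for Ugcg over hair matrix and shaft, which had passed. Ugcg over inner root sheath was 0.0113 with DESeq2, 0.0777 with library size alone, 0.11 at a score of 0.5, 0.42 with spots on 1 list only, 0.00139 at 2 steps, 0.41 and 0.18 with clusters at resolution 2 without and with the minimum score, and -0.0898 to 0.0487 when a slice was left out. Cers3 over inner root sheath was 0.25 with spots on 1 list only and 0.20 with clusters at resolution 2, and with the minimum score it did not turn. Cyp4f39 over gland was 0.0147 at a score of 0.5, 0.81 with spots on 1 list only, 0.78 at 2 steps, 0.84 with clusters at resolution 2 (-0.07 with the minimum score) and 0.0794 with thinned spots, and -0.49 (adjusted p = 0.0052, edgeR) with clusters at resolution 0.9. Ugcg over hair matrix and shaft was 0.12 with spots on 1 list only and 0.21 with clusters at resolution 0.9, where at least 1 slice had too few spots to enter. With the replicate block, Cers3 over inner root sheath was -0.27 with adjusted p = 0.027 (edgeR), Cers3 over the outer root sheath and companion layer also passed (adjusted p = 0.026) and Ugcg in the gland was lower than in muscle (adjusted p = 0.042), and the block changed no other call of a member. A count was kept for single genes in the epidermis over upper follicle, inner root sheath and gland, and in part of the other comparisons. In it, 18 values lost and 9 gained a passing test under an alternative with the direction kept. The comparisons of Pnpla1 and Aloxe3 with muscle whose lost calls are given above were not in that count. Outside the epidermis a region held 2 to 71 UMIs of Alox12b, Aloxe3 or Sptlc3 in all, which limits their order there. The comparisons with the outer root sheath and the hair matrix, and the clusters with a minimum score, were chosen after seeing the data, and the other alternatives were planned.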

Other observations

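The ceramide synthases other than Cers3 had patterns of their own. Cers4, which acts on shorter chains than Cers3, was lower in the epidermis than in the gland by a log2 fold change of -2.44 ± 0.12, Cers5 by -1.22 ± 0.19 and Cers2 by -0.84 ± 0.17 (adjusted p = 1.0e-20, 4.1e-06 and 0.00019, edgeR). Cers6 was higher in the epidermis than in the upper follicle, by 0.77 ± 0.22, and than in the gland, by 0.67 ± 0.24 (adjusted p = 0.013 and 0.046, edgeR). Against the inner root sheath Cers2, Cers4, Cers5 and Cers6 were all higher in the epidermis, by 0.80 to 1.37, where Cers3 did not pass.

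Sptssb, a small subunit of serine palmitoyltransferase, was lower in the epidermis than in the inner root sheath by -2.80 ± 0.27 and Sptssa, the other small subunit, higher by 1.76 ± 0.10 (adjusted p = 5.5e-12 and 2.5e-19, edgeR). Sptlc3 was higher in the epidermis in the same comparison, by 3.85 ± 0.25, and Sptlc2 was at -0.16 ± 0.14 (adjusted p = 0.37, edgeR).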
